A study of Mus musculus with 6 samples.

Results

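Toll-like receptors are a family of pattern recognition receptors, and CD14 is a surface protein that hands microbial lipids to them. The 10 genes described here are Tlr1, Tlr2, Tlr4, Tlr6 and Cd14, whose products act at the cell surface, and Tlr3, Tlr7, Tlr8, Tlr9 and Tlr13, whose products act in endosomes. They were taken by gene symbol from the 19938 genes that had a probeset annotated to 1 symbol, and each of the 10 had 1 such probeset. The samples were KSL SLAM cells of mouse bone marrow, a fraction enriched for haematopoietic stem cells by sorting for c-Kit, Sca-1 and CD150 and against lineage markers, CD48 and CD41. For 7 days the mice had received either PBS, which the series title calls saline, or G-CSF (granulocyte colony-stimulating factor) at 125 mcg/kg, injected under the skin 2 times daily. No genotype, strain, sex or age of the mice is stated in the labels. Each group had 3 MoGene 1.0 ST arrays, and each array stands for a separate pool of 5 to 10 mice, so the spread between arrays is a spread between pools.

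Surface Toll-like receptors bind lipids and proteins of microbial envelopes, and the endosomal ones bind nucleic acids that reach the endosome. Ligand binding brings receptors together as dimers. The intracellular TIR domains then recruit adaptors, among them MyD88 and TRIF, which lead to NF-kB and interferon regulatory factors. These receptors are best known from neutrophils, monocytes, macrophages and dendritic cells, and some of them are also known to be present on haematopoietic stem and progenitor cells.

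Array medians ran from an intensity of 56.2 to 61.7, and the rank correlation of 2 arrays was 0.861 to 0.895 inside a group and 0.836 to 0.892 across groups (Spearman, across genes). Values below are log2 intensities, and a difference is G-CSF minus PBS on that scale. Levels of different genes are not set against each other, since each probeset has its own response. The 25% of probesets with the lowest means, up to a log2 mean of 5.152, were left out of the test across genes. That limit is a filter and not a measured background. Of the 10 genes 8 passed it and were tested, and Tlr7 and Tlr8 did not pass. Tlr1 passed only through its G-CSF arrays, so some difference in Tlr1 follows from its passing. With bulk arrays, more cells of a type and more RNA per cell cannot be told apart.

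The comparison asked how 7 days of G-CSF change transcripts of the stem cell fraction. With G-CSF, 2 of the 10 genes were higher by more than 1 on the log2 scale, the surface receptor Tlr1 and the endosomal receptor Tlr13, a size reached by 0.792% of all 19938 genes. The lowest of the 3 G-CSF arrays exceeded the highest of the 3 PBS arrays in 6 of the 10 genes (Tlr1, Tlr2, Tlr6, Cd14, Tlr9 and Tlr13), and the reverse held in 0. Over the 19938 genes, 5.58% were higher and 4.44% lower without overlap. By place of action these were 4 of the 5 surface genes and 2 of the 5 endosomal ones. All 5 surface genes had passed the filter, but only 3 of the 5 endosomal ones. The count without overlap was 4 of 10 when arrays were scaled again by quantiles (5.61% of all genes) or centred on their medians (4.94%). Cd14 and Tlr9 overlapped between groups in both of these settings. The difference was positive in 8 of the 10 genes, beside 52.1% of all genes. The median difference was 0.37 over the 10 genes, 0.44 over the surface genes and 0.18 over the endosomal genes, beside 0.01 over all 19938 genes. After Benjamini-Hochberg adjustment over all genes tested, 0 of the 8 tested genes passed at an adjusted p under 0.05 in limma, where 0.0267% of genes passed. In a fit with no filter, which tests all 10, 0 passed after adjustment (0.0201% of all genes did), and at an unadjusted p under 0.05 5 of the 10 were higher (Tlr1, Tlr2, Tlr6, Cd14 and Tlr13) and 0 lower, beside 2.46% higher and 2.73% lower of all 19938 genes. With the filter, Tlr2 lay just outside that threshold (limma unadjusted p = 0.0509).

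**Figure D1:**
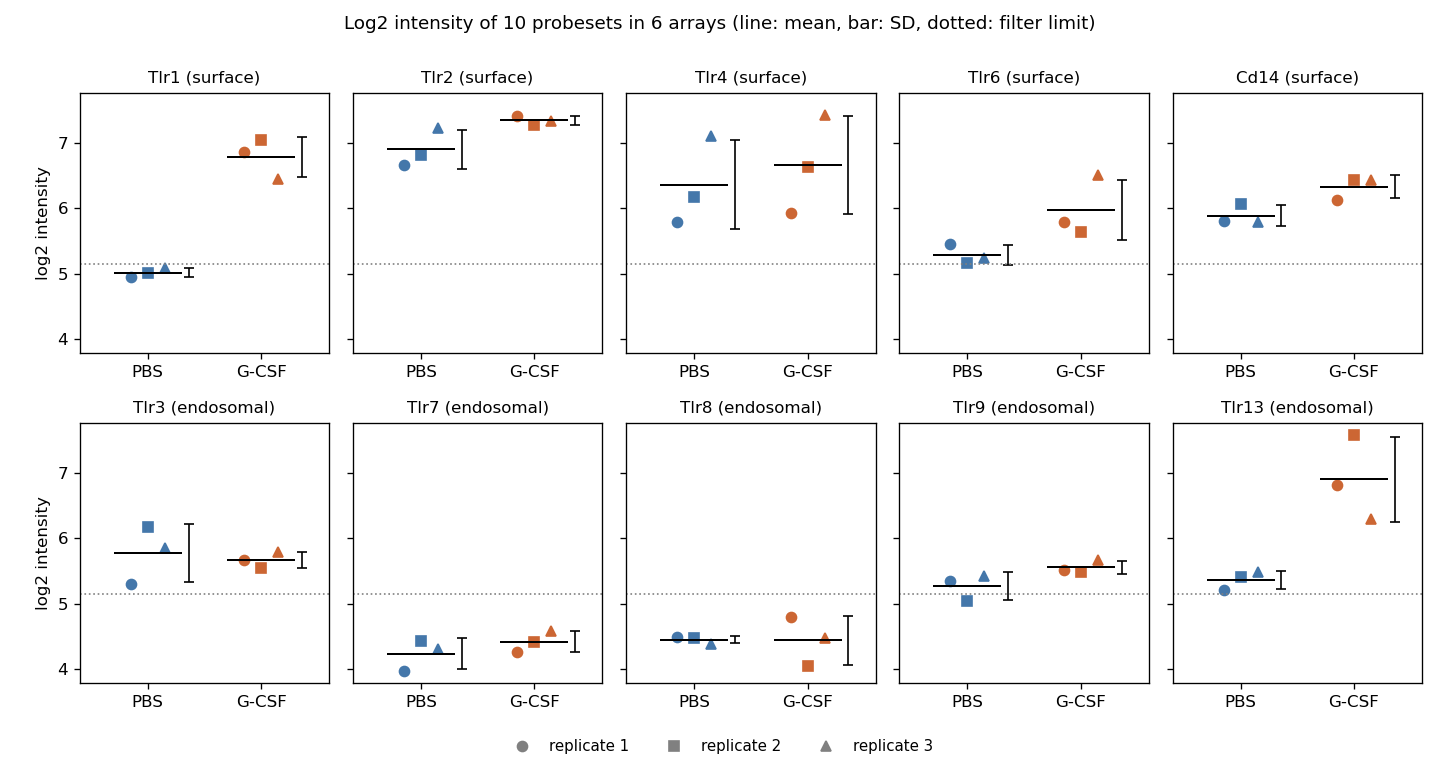
Log2 intensity (vertical axis) of the 10 probesets in the 3 PBS and 3 G-CSF arrays. Points are arrays with a shape per replicate number, the line is the group mean, the bar its SD, and the dotted line the filter's limit of 5.152. The G-CSF arrays of Tlr1 (6.45 to 7.04) and Tlr13 (6.30 to 7.58) sit clear of their PBS arrays, while those of Tlr4 cover nearly the same span as PBS.

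Among the surface receptors, Tlr1, which pairs with Tlr2 to bind triacylated bacterial lipopeptides, differed most. Its log2 intensity was 4.945, 5.016 and 5.093 in the PBS arrays and 6.859, 7.039 and 6.445 in the G-CSF arrays. All PBS arrays lay under the filter's limit and close together, and all G-CSF arrays lay above it, with a gap of 1.35 between the groups. The means were 5.02 ± 0.07 and 6.78 ± 0.31 (SD, n = 3 per group), a difference of 1.76 (SE 0.19, 3.39-fold, limma adjusted p = 0.0627). With no filter, where Tlr1 is tested whatever its level, the limma adjusted p was 0.0633. With PBS values raised to the limit, the difference was at least 1.63 on the log2 scale (3.09-fold, limma adjusted p = 0.0647), a bound that allows for the filter's limit and for no sampling error. The limma adjusted p was 0.043 after quantile normalization and 0.0328 with a trended and robust variance. It ran from 0.0328 to 0.229 over the alternatives that tested Tlr1. With the dimmest 50% of probesets left out, Tlr1 was not tested.

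Tlr2, the shared partner of Tlr1 and Tlr6, measured 6.654, 6.808 and 7.228 with PBS and 7.409, 7.268 and 7.334 with G-CSF. The groups did not overlap, but PBS replicate 3 lay only 0.04 under the lowest G-CSF array. The difference was 0.44 (SE 0.19, 1.36-fold, limma adjusted p = 0.832, 95% interval of the difference -0.002 to 0.88). The spread was larger with PBS (SD 0.30) than with G-CSF (SD 0.07), and this inequality was not tested.

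Tlr6, which pairs with Tlr2 to bind diacylated lipopeptides and lies next to Tlr1 in the genome, measured 5.454, 5.159 and 5.24 with PBS and 5.789, 5.634 and 6.5 with G-CSF. All G-CSF arrays were higher, G-CSF replicate 3 most of all. The difference was 0.69 (SE 0.25, 1.61-fold, limma unadjusted p = 0.0268, adjusted p = 0.749), and without G-CSF replicate 3 it was 0.43.

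Tlr4, the lipopolysaccharide receptor, measured 5.793, 6.167 and 7.107 with PBS and 5.921, 6.622 and 7.423 with G-CSF. The groups overlapped over most of their span, and in both the array numbered 3 was the highest and the array numbered 1 the lowest. The difference was 0.30 (SE 0.46, limma adjusted p = 0.966), with a 95% interval from -0.77 to 1.37, which spans lower and higher levels. The difference was -0.08 without G-CSF replicate 3 and 0.018 without PBS replicate 1, but 0.675 if PBS replicate 3 was left out and 0.667 if G-CSF replicate 1 was. Between arrays of the same number, G-CSF minus PBS was 0.128, 0.455 and 0.316 for numbers 1, 2 and 3. With the replicate number in the fit as a block, the difference was also 0.30, with an SE of 0.17 (limma unadjusted p = 0.128, adjusted p = 0.778).

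Cd14, the co-receptor that passes lipopolysaccharide to Tlr4, measured 5.8, 6.066 and 5.791 with PBS and 6.126, 6.43 and 6.426 with G-CSF. The groups were separated by a narrow gap of 0.06, which closed to an overlap after rescaling. The difference was 0.44 (SE 0.17, 1.36-fold, limma unadjusted p = 0.0334, adjusted p = 0.761).

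Partner receptors were also compared within each array, which asks whether 2 genes differed between groups by unequal amounts. The log2 difference Tlr1 minus Tlr2 was -1.88 ± 0.23 with PBS and -0.56 ± 0.33 with G-CSF (SD, n = 3), so Tlr1 was higher by 1.32 more than Tlr2, without overlap of the groups (exact two-sided permutation p = 0.1, adjusted p = 0.2 over 4 contrasts). The smallest p that 3 against 3 arrays allow is 0.1, so no contrast could pass. The difference between groups in Tlr1 was larger than that in Tlr6 by 1.07 (exact permutation p = 0.1, adjusted p = 0.2), but Tlr1 minus Tlr6 was -0.055 in G-CSF replicate 3, close to the highest PBS value of -0.144. Tlr6 minus Tlr2 differed between groups by 0.25 and Cd14 minus Tlr4 by 0.14, both with overlapping arrays (exact permutation p = 0.5 and 0.7, adjusted p = 0.667 and 0.7). Single arrays turned the direction of both, as Tlr6 minus Tlr2 was -0.015 without G-CSF replicate 3, and Cd14 minus Tlr4 became -0.281 if PBS replicate 3 was left out and -0.124 if G-CSF replicate 1 was.

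**Figure D2:**
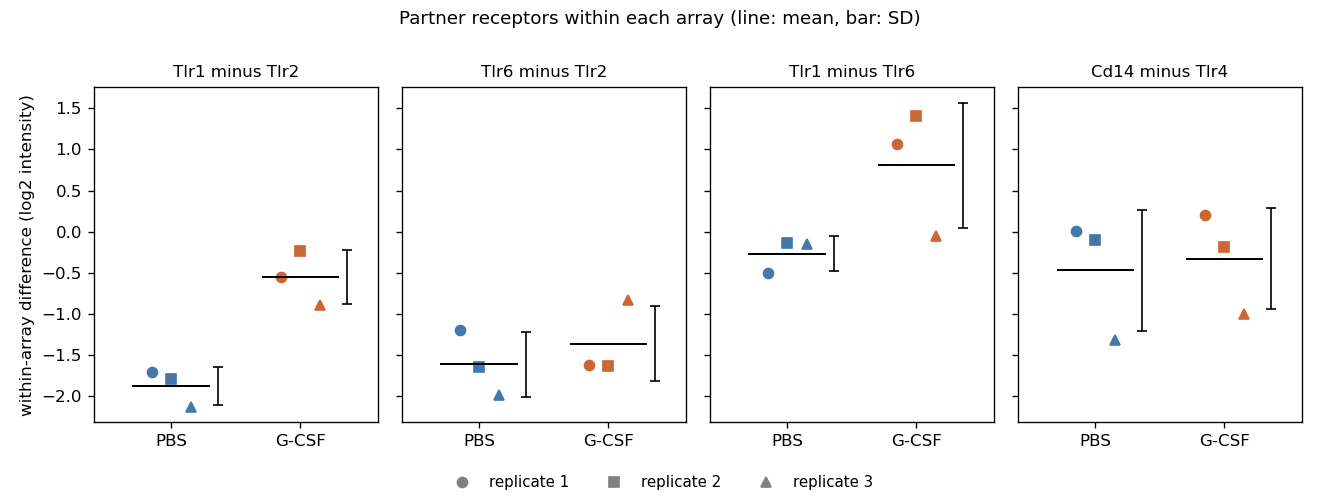
Within-array log2 difference between partner receptors (vertical axis) in PBS and G-CSF arrays, with the mean as a line and the SD as a bar. Tlr1 minus Tlr2 separates the groups in all arrays, and Cd14 minus Tlr4 overlaps. The height of a panel carries no meaning, as 2 probesets are subtracted.

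Among the endosomal receptors Tlr13, which binds bacterial ribosomal RNA in mice, stood apart. It measured 5.207, 5.409 and 5.481 with PBS and 6.813, 7.582 and 6.297 with G-CSF. The groups were separated by a gap of 0.82, and the G-CSF arrays were spread more widely (SD 0.65) than the PBS arrays (SD 0.14). The difference was 1.53 (SE 0.32, 2.89-fold, limma unadjusted p = 0.00166, adjusted p = 0.297), and its adjusted p ran from 0.221 to 0.593 over the alternatives. Without G-CSF replicate 2, its highest array, the difference was 1.19.

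Tlr9, the receptor for unmethylated CpG DNA, measured 5.349, 5.036 and 5.43 with PBS and 5.509, 5.492 and 5.666 with G-CSF. The G-CSF arrays were higher by a gap of 0.06, which was lost after rescaling. The difference was 0.28 (SE 0.17, limma adjusted p = 0.932, 95% interval -0.11 to 0.68), and 0.166 without PBS replicate 2.

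Tlr3, the receptor for double-stranded RNA, measured 5.304, 6.169 and 5.854 with PBS and 5.668, 5.54 and 5.787 with G-CSF, and all G-CSF arrays lay inside the PBS span. The difference was -0.11 (SE 0.24, limma adjusted p = 0.986, 95% interval -0.67 to 0.45). It was -0.346 without PBS replicate 1, where Tlr3 was lower without overlap, and 0.086 without PBS replicate 2. Tlr7, the receptor for single-stranded RNA, and Tlr8, its neighbour in the genome and closest relative in sequence, lay under the limit in all 6 arrays. Tlr7 measured 3.971, 4.435 and 4.318 with PBS and 4.263, 4.418 and 4.586 with G-CSF. Tlr8 measured 4.49, 4.479 and 4.388 with PBS and 4.802, 4.057 and 4.479 with G-CSF. Both overlapped between groups. In a fit with no filter the difference was 0.18 for Tlr7 (95% interval -0.25 to 0.61, limma adjusted p = 0.987) and -0.006 for Tlr8 (95% interval -0.50 to 0.49, limma adjusted p = 1). With 1 array left out the former ran from 0.046 (without PBS replicate 1) to 0.278 (without PBS replicate 2), and the latter from -0.184 to 0.188 (without G-CSF replicate 1 and 2). A change in these 2 transcripts may not be detectable at such signals.

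**Figure D3:**
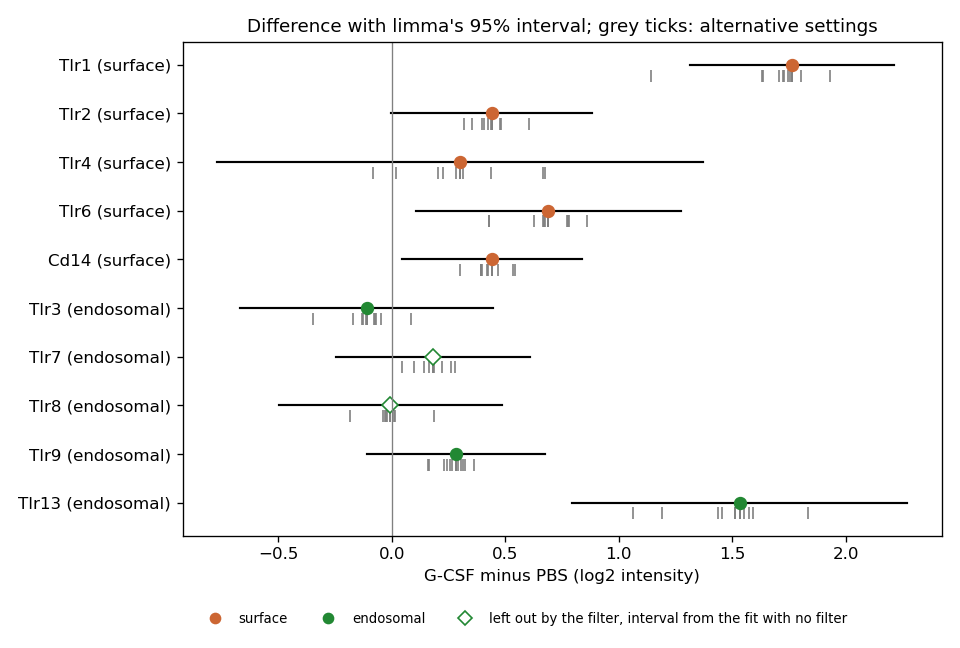
Difference G-CSF minus PBS (horizontal axis, log2 intensity) of each gene, with limma's 95% interval as a line and the value under each alternative setting as a grey tick. The intervals of Tlr1 (1.31 to 2.21) and Tlr13 (0.79 to 2.27) lie farthest from 0, those of Tlr6 and Cd14 also begin above 0, and the others include it.

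The sequences before the annotated starts of Tlr1 and Tlr13 are shown because these genes had the largest differences. They are the 250 bases upstream of each RefSeq start (assembly GRCm38.p6), written 5′ to 3′ along the gene, and capitals mark matches to GAGGAAG (the core of the motif of PU.1, a myeloid transcription factor) or to TTCNNNGAA (a STAT motif, the family activated by the G-CSF receptor).
Tlr1, first start, chr5:64933559-64933808, minus strand: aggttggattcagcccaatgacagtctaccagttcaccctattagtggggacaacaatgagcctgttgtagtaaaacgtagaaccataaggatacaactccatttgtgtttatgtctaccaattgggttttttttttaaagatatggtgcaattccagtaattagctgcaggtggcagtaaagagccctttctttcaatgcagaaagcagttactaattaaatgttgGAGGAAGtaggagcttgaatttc
Tlr1, second start, chr5:64932700-64932949, minus strand: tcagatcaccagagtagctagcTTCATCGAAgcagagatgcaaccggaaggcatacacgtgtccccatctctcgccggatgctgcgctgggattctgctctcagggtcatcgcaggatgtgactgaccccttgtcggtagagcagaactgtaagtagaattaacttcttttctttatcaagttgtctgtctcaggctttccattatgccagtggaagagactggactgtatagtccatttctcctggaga
Tlr13, chrX:106143025-106143274, plus strand: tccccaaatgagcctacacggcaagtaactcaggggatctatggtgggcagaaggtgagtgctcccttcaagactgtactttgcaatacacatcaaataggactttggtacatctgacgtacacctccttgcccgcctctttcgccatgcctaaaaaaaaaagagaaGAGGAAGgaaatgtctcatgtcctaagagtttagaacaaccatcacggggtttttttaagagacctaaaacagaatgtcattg
The letters GAGGAAG stood at -23 to -17 before the first Tlr1 start and at -83 to -77 before the Tlr13 start, and TTCNNNGAA at -228 to -220 before the second Tlr1 start. Both strands were searched, and no matches overlapped. Of 32851 such windows in the table, 10.6% held GAGGAAG, 7.02% held TTCNNNGAA and 9.56% held TTGCNNAA, a C/EBP core. The table held 9 windows for 7 of the 10 genes, and among genes with smaller differences Tlr9 had a GAGGAAG match, Tlr8 a TTCNNNGAA match, and Tlr3, Tlr6 and Tlr8 each a TTGCNNAA match. A match describes the letters only, and binding was not measured.

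Genes whose profile over the 6 arrays was most like that of Tlr1 were Gca (grancalcin, a calcium-binding protein of neutrophils), Ly6a2 of the Ly6 family and Cd300lf, a myeloid immunoglobulin-like receptor. Their mean-centred log2 values differed from those of Tlr1 by a root mean square of 0.164, 0.182 and 0.198 among 13966 genes compared. For Tlr13 they were Csf3r, the G-CSF receptor itself (0.171), Mmp9, a gelatinase stored in neutrophil granules (0.206), and Clec5a, a myeloid lectin receptor (0.233). Tlr1 and Tlr13 entered this search because of their difference between groups, so genes with a similar difference lie near them by construction. Gca differed between groups by 1.56 (SE 0.19, limma adjusted p = 0.0769), Ly6a2 by 2.01 (SE 0.19, adjusted p = 0.0391) and Cd300lf by 1.81 (SE 0.19, adjusted p = 0.0627). The values were 1.51 for Csf3r (SE 0.41, limma adjusted p = 0.477), 1.76 for Mmp9 (SE 0.37, adjusted p = 0.307) and 1.765 for Clec5a (SE 0.35, adjusted p = 0.266).

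Markers of neutrophils and their precursors were also higher in the G-CSF arrays. For 11 of 12 neutrophil markers the lowest G-CSF array exceeded the highest PBS array, as it did for 5.77% of the 14994 genes tested (5.05% were lower without overlap), and Ly6g was the exception (-0.19, SE 0.48). The mean log2 intensity of that list was 8.32 to 9.27 in the PBS arrays and 10.18 to 10.82 in the G-CSF arrays, with 0 of its 12 markers under the limit in either group. Of the 7 granulocyte-monocyte progenitor markers 6 were higher without overlap (list means 6.33 to 6.67 with PBS and 7.49 to 8.43 with G-CSF), and so were 5 of 7 tested monocyte and macrophage markers (6.33 to 6.76 and 6.95 to 7.14). No marker tested for dendritic cells (4), B lymphocytes (2), T lymphocytes and NK cells (3) or erythroid cells (2) was separated without overlap in either direction. Of 4 megakaryocyte markers 1, Pf4, was lower without overlap, and the list mean was 6.31 to 6.83 with PBS and 5.69 to 5.97 with G-CSF. The group means of all 9 measured stem cell markers lay above the limit in both groups, and 2 of them, Kit and Tek, were lower without overlap with G-CSF. The mean of the stem cell list was 7.97 to 8.10 in the PBS arrays and 7.54 to 7.91 in the G-CSF arrays, lower in each of the latter. After adjustment over all genes tested, 0 of these markers passed in limma.

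Within the G-CSF group, Tlr1, Tlr13 and the progenitor and dendritic cell lists had their highest array in replicate 2 and their lowest in replicate 3. In the arrays numbered 1, 2 and 3, the progenitor list was at 7.594, 8.43 and 7.488. The dendritic cell list was at 5.986, 6.213 and 5.964. The neutrophil list (10.18, 10.819 and 10.278) was also highest in replicate 2, but lowest in replicate 1. The stem cell list (7.537, 7.908 and 7.736) and the erythroid list (5.334, 5.708 and 5.689) had that same order. The monocyte and macrophage list (6.948, 6.994 and 7.142) was highest in replicate 3 and lowest in replicate 1. Tlr6 and Tlr4 had their highest G-CSF array in replicate 3. Within the PBS group, the neutrophil list spanned 0.95 on the log2 scale, the monocyte and macrophage list 0.43 and the progenitor list 0.34. Tlr1, which lay under the filter's limit in all PBS arrays, spanned 0.15, and Tlr13 spanned 0.27. The part of these markers in the receptors' differences was not tested.

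**Figure D4:**
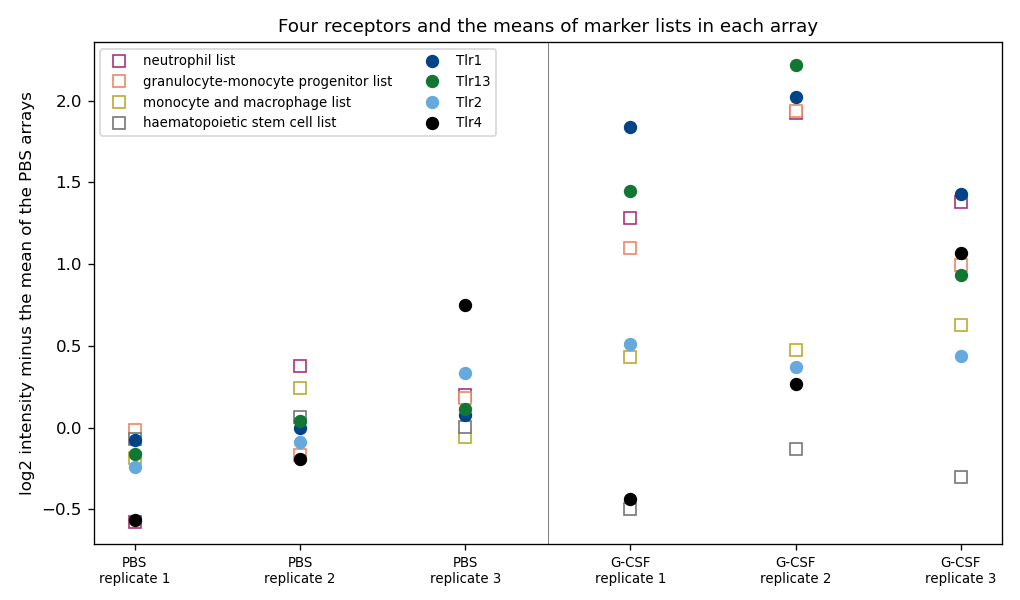
Log2 intensity minus the mean of the PBS arrays (vertical axis) for Tlr1, Tlr13, Tlr2 and Tlr4 (filled circles) and for the means of 4 marker lists (open squares) in each of the 6 arrays. In the G-CSF arrays Tlr1, Tlr13 and the neutrophil, progenitor and stem cell lists sit highest in replicate 2, and the monocyte and macrophage list in replicate 3. Tlr4 is highest in replicate 3 of either group.

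Of the other genes of the pathway, 67 of 74 listed had a probeset with 1 symbol, 60 were tested, and 0 passed after adjustment in either direction. At an unadjusted p under 0.05, 6 of the 60 were higher, beside 2.73% of all genes tested, and 3 were lower, beside 3.3%. The median difference was -0.03. The accessory proteins of surface receptors were the list with the most members higher at that unadjusted threshold, 4 of 7 (median 0.54). They included Itgam (1.76, SE 0.44) and Itgb2 (0.99, SE 0.25), the subunits of the integrin CD11b/CD18, and Itgam is also a myeloid marker. Ly96, the partner that Tlr4 needs to bind lipopolysaccharide, was left out by the filter, at 4.28 ± 0.52 with PBS and 4.47 ± 0.72 with G-CSF (SD, n = 3). Of the 8 tested folding and trafficking genes 0 reached that threshold (median 0.009), with Slc15a4, an endosomal transporter, at -0.58 (SE 0.26) and Cnpy3, a chaperone of several receptors, at -0.53 (SE 0.24). Unc93b1, which carries the nucleic acid receptors to endosomes, was 0.51 higher (SE 0.36, limma adjusted p = 0.948). Of the 4 tested endosomal proteases 1 was higher at that threshold, Ctss (cathepsin S, 0.47, SE 0.20).

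Downstream of the receptors, 41 adaptors, kinases, transcription factors and regulators were tested. At an unadjusted p under 0.05, 1 was higher, beside 2.73% of all genes tested, and 3 were lower, beside 3.3%. Of the 5 tested adaptors 0 reached an unadjusted p under 0.05 (median 0.33), and Myd88 was 0.76 higher (SE 0.35, limma unadjusted p = 0.0675) without overlap. Of 16 kinases and ubiquitin ligases 1 was higher, Map3k7 (the kinase TAK1, 0.63, SE 0.24), and 1 lower, the ubiquitin ligase Traf6 (-0.70, SE 0.28). Among 9 transcription factors 0 were higher and 1 was lower, the NF-kB subunit Rel (-0.64, SE 0.26). Among 11 negative regulators 0 were higher and 1 was lower, the phosphatase Dusp1 (-0.69, SE 0.24), and the NF-kB inhibitor Nfkbia was at -0.34 (SE 0.15, limma unadjusted p = 0.0517) without overlap. Of the receptors outside the 10 genes, Tlr12 had a probeset with 1 symbol and was left out by the filter, at 5.18 ± 0.15 with PBS and 5.12 ± 0.16 with G-CSF (SD, n = 3), and Tlr5 and Tlr11 were not analysed here.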

How the data were processed

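Column-purified RNA of sorted cells was amplified (NuGen Ovation), labelled with biotin and hybridised to MoGene 1.0 ST arrays, per the labels' protocols. The deposited intensity values of 35554 probesets were processed with RMA, per the submitters' processing notes, and no software, version or set of arrays is stated for it. The values deposited by the authors ran from 2.7 to 19069.3, a linear scale, so log2 was taken.

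Gene names came from the platform annotation (21789 probesets with 1 symbol, 1621 with several, 12144 not listed). Only those with 1 symbol were used, the one with the highest mean per gene, after leaving out the lowest 25%. Groups were compared with limma 3.58.1 in R 4.3.3 (lmFit and eBayes, no covariate, Benjamini-Hochberg over 14994 genes, two-sided, threshold 0.05). The fit was tested on simulated data. Partner contrasts used exact two-sided permutation tests, adjusted over the 4. Motifs were matched in RefSeq promoter windows, with figures from matplotlib 3.10.9. The 10 genes, the marker and pathway lists and the tests were chosen with earlier results of these data known. From each pathway list, up to 2 genes with the smallest p were to be named. Like genes were the 3 nearest profiles for each member at an unadjusted p under 0.01, with predicted genes passed over. Ly96, Unc93b1, Tlr12, Ly6g, Pf4, Kit and Tek fall outside the naming rule and were added after their values were seen. Alternatives changed the filter, the scaling, the log offset, array weights, the variance model, the choice of probeset and the replicate block, and left out each array.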

Additional observations from a re-analysis of the deposited data

How the results depend on the processing

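The number of genes past the threshold over all genes, 4 in the reported setting, was 12 after quantile normalization again, 2 with arrays centred on the median and 2 with log2(value + 32), and from 0 to 6 when each array was left out. The number of the 10 genes past it, 0 as reported, was 1 (Tlr1) after quantile normalization again and 1 (Tlr1) with trend and robust settings, and 0 in every case that left out an array. The causes were not tested. Tlr1 ran from 1.14 to 1.93, Tlr13 from 1.06 to 1.83, Cd14 from 0.30 to 0.54 and Tlr9 from 0.16 to 0.36. These lower ends came with log2(value + 32), which compresses dim values by construction. With 1 array left out, the lowest values of Tlr1, Tlr13, Cd14 and Tlr9 were 1.634, 1.19, 0.391 and 0.166. Tlr6 ran from 0.43 to 0.86, Tlr2 from 0.32 to 0.61 and Tlr7 from 0.046 to 0.278. These 7 genes kept a positive sign in all alternatives run. Tlr1, Tlr3, Tlr6 and Tlr9 were not tested with the dimmest 50% left out. With 1 array left out, Tlr4 ran from -0.08 to 0.675, Tlr3 from -0.346 to 0.09 and Tlr8 from -0.184 to 0.188. The sign turned for Tlr4 without G-CSF replicate 3 (-0.084), for Tlr3 without PBS replicate 2 (0.086), and for Tlr8, with no filter, without PBS replicate 1 (0.013), PBS replicate 2 (0.008) or G-CSF replicate 2 (0.188). Leaving out an array cannot lower the number of genes without overlap, which was 6 higher in each case, and without PBS replicate 1 Tlr3 was lower without overlap. With 1 array left out, Tlr1 minus Tlr2 ran from 1.16 to 1.49, Tlr1 minus Tlr6 from 0.77 to 1.504, Tlr6 minus Tlr2 from -0.015 to 0.46 and Cd14 minus Tlr4 from -0.28 to 0.48, the negative values arising without G-CSF replicate 3 for the former, and without PBS replicate 3 (-0.281) or G-CSF replicate 1 (-0.124) for the latter. Alternatives for Tlr7 and Tlr8 and for the count without overlap were chosen after seeing the data. Same-numbered arrays had correlations of their deviations from group means of 0.289, 0.019 and 0.193, and other pairs from -0.282 to 0.101. Each PBS array correlated best with the G-CSF array of its own number. G-CSF replicate 2 correlated more with PBS replicate 3 (0.101) than with PBS replicate 2 (0.019). These values do not settle whether the numbers pair the samples. The reported fit took the samples as unpaired, with the replicate block as an alternative. With the replicate block 5 genes passed in all and 0 of the 10, with Tlr1 at limma adjusted p = 0.112 and Tlr13 at 0.238.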
